A study of Mus musculus with 2 samples.

Results

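The genes of the proteasome were compared between Neuro2a cells given a control siRNA and Neuro2a cells given an siRNA against Tmem132a. Members were chosen by symbol alone: Psm, a class letter from a to g and a number, or Pomp or Adrm1, on probe sets annotated to a single gene. The rule found 49 of the 18193 genes that had such a probe set, read by 103 probe sets. Psmc3ip fits the pattern by its name but encodes a meiotic recombination factor that is no part of the proteasome. It stays among the counted members, in no class. Adrm1, a ubiquitin receptor, was not analysed here.

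Neuro2a is an established mouse neuroblastoma line. Total RNA of 1 culture sample per group was hybridised to 1 Affymetrix Mouse Genome 430 2.0 array each, so the groups could not be tested against each other and replicate error is unknown throughout. Both groups were transfected with an siRNA: a non-specific sequence in the control, and in the other sample a sequence against mKIAA1583, which is Tmem132a. Sequences, doses and times are not given in the sources used here.

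The target itself went from 1825.5 in the control to 435.6 under its own siRNA on probe set 1416845_at, which is 23.9% of the control level. The 2% trimmed mean was 500.003 on either array, and the medians were 76.5 and 81.9. Of 17 neuroblastoma and neuron markers with a probe set, 15 passed the signal filter, among them Hand2, Phox2a and Chgb. Nefl and Nefm did not. All 15 had a ratio below 0 (median log2 ratio -0.26), where 51.8% of all genes measured were above 0. L1cam alone was at least 1.5-fold lower (-0.95, 4241.8 to 2253.1), a size that 9.11% of all genes reached. Few markers of other cell types passed: 3 of 13 immune, 2 of 14 fibroblast and 4 of 12 glial genes. The summed signal of the fibroblast list went from 11986.7 to 3873.8, mostly through Acta2 (10520.2 to 2712.7), and that of the glial list from 5494.1 to 5632.1. Of the 4 glial genes, Erbb3 alone was at least 1.5-fold higher (1.37, 128.9 to 332.6), against 8.82% of all genes, and Cnp was lowest (-0.43). The part of these cell types in the results below was not tested. In RNA of a whole culture, fewer cells of a kind and less RNA per cell cannot be told apart.

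The proteasome is the barrel-shaped protease that degrades proteins tagged with ubiquitin. Its 20S core stacks rings of alpha subunits, which form the gate, on rings of beta subunits, some of which cut peptide bonds. The 19S regulator binds the end of the barrel: its base holds a ring of ATPases that unfold substrates, and its lid removes ubiquitin. Dedicated chaperones build each part. Interferon exchanges the catalytic beta subunits for those of the immunoproteasome, which makes peptides for antigen presentation. In mammalian cells the transcription factor NRF1, encoded by Nfe2l1, raises proteasome genes when proteasome activity is short.

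Values below are log2 ratios of signal, Tmem132a siRNA over control siRNA, averaged over the probe sets of a gene with a mean signal over the arrays of at least 77.25, the median of all probe sets. A total of 46 members were measured in this way, by 84 probe sets. Psma8, Psmb11 and Psmb9 were too dim. Signals of different probe sets are not comparable as levels, because each probe set binds its target differently.

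Most proteasome transcripts lay slightly above the control level on the Tmem132a siRNA array, within a narrow range. Of 46 measured members, 34 (73.9%) had a ratio above 0, where 51.8% of all 10678 genes did. The median was 0.10, which is 1.07-fold, against 0.02 over all genes. No member was at least 1.5-fold higher (0 of 46), a size that 8.82% of all genes reached. Pomp and Psme1 were at least 1.5-fold lower (2 of 46), against 9.11% of all genes. At 2-fold in either direction the count was 0, against 4.54%.

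Most of these genes are bright on the array, and bright genes varied less. Of 38 members with a probe set at or above a signal of 2000, 29 had a ratio above 0, where 50.9% of the 2554 genes this bright did. The shares of these bright genes that were at least 1.5-fold higher or lower were 3.52% and 4.66%, and the members numbered 0 and 2. The SD of the ratios was 0.28 over the 46 members, 0.34 over the bright genes and 0.49 over all genes. Where a gene had several probe sets above 2000, their SD around the gene mean was 0.18 over all genes and 0.12 over members. With dimmer probe sets past the filter included, it was 0.39 over all genes and 0.36 over members. This spread between probe sets can hold measurement error and different transcripts, which were not separated. Of the 38 bright members 19 lay within 0.18 of 0, 14 were above it and 5 below, while 45.2% of all bright genes lay within it. Many single ratios below are thus no larger than this spread between probe sets, and spread between cultures was not measured.

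**Figure D1:**
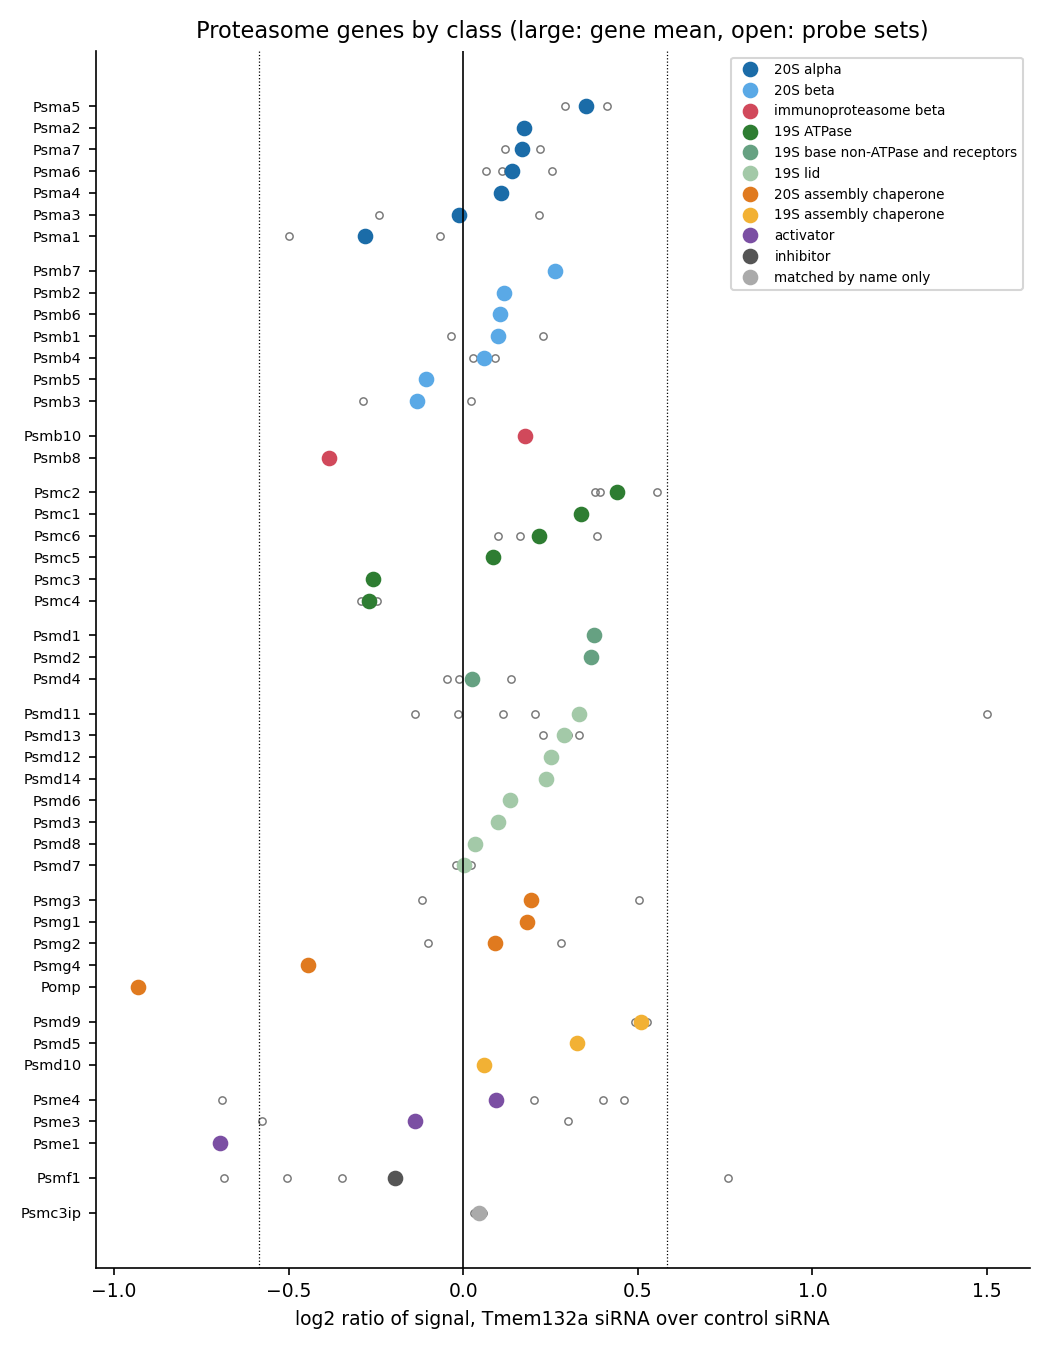
Log2 ratio of signal (Tmem132a siRNA over control siRNA) of the 46 measured members, grouped by class; large points are gene means, open points are the probe sets of genes with several, and dotted lines mark 1.5-fold. Most points sit just right of 0, Pomp (-0.93) and Psme1 (-0.70) lie left of the dotted line, and a dim probe set of Psmd11 stands far right, 2.83-fold higher.

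The alpha subunits, which form the outer rings of the core and its gate, gave 5 of 7 ratios above 0, with a median of 0.14. Psma5 had the highest ratio as processed here. Its probe sets went from 11444.7 to 13999.8 and from 5873.3 to 7810.5, which gives a gene ratio of 0.35. Both probe sets were higher on the Tmem132a siRNA array. Psma2 went from 9151.7 to 10322.5 (0.17) and Psma4 from 7418.1 to 7995.6 (0.11).

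Psma6 and Psma7 were read by several probe sets that were all higher on the Tmem132a siRNA array. The 4 of Psma6 ran from 0.07 to 0.25, and the 2 of Psma7 gave 0.12 and 0.22. Psma1 had the lowest ratio of the class, -0.28, but its probe sets differed in size: the bright 1415695_at went from 8717.2 to 8330.3 (-0.07) and the dim 1458292_at from 317.7 to 224.8 (-0.50). The ratio of Psma3 was -0.01, from a bright probe set at 0.22 (17257.8 to 20071.5) and a dim one at -0.24 (447 to 378.4). For both genes the dim probe set lay below the bright one. Psma8, an alpha subunit of the testis, had signals of 29.4 and 4.1, too dim to compare.

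The constitutive beta subunits had a median of 0.10, with 5 of 7 above 0, and stayed between -0.13 and 0.26. The catalytic members did not share a direction. Psmb7, which carries the trypsin-like activity, was highest, from 18325.8 to 21990.2 (0.26). Psmb6, which carries the caspase-like activity, went from 6541.8 to 7040 (0.11). Psmb5, which carries the chymotrypsin-like activity and is the main target of bortezomib, went from 9708.5 to 9015.3 (-0.11). Of these 3, Psmb7 alone lay beyond 0.18, the spread between bright probe sets.

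The beta subunits without an active site were as close to 0. Psmb2 had a ratio of 0.12, Psmb1 of 0.10 and Psmb4 of 0.06. Psmb3 had a ratio of -0.13, from probe sets at 0.02 (8194.5 to 8314.5) and -0.29 (5668.7 to 4650.3). For the whole 20S core the median was 0.11 over 14 genes, 10 of them above 0.

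The immunoproteasome subunits were dim in these cells. Psmb8, the inducible counterpart of Psmb5, went from 404.5 to 309.9 (-0.38). Psmb10, the counterpart of Psmb7, went from 506.3 to 572 (0.18). Psmb9, the counterpart of Psmb6, read 84.9 and 67.4, a mean of 76.15 just under the filter. The measured pair thus lay on opposite sides of 0, as did their constitutive counterparts Psmb5 (-0.11) and Psmb7 (0.26). With only a pair in each set, and Psmb5 within 0.18 of 0, no shared behaviour can be read from this. A second, dimmer probe set of Psmb8 read 51.4 and 9.8, and with no signal filter, where it entered, the gene ratio was -1.11. Psmb11, the subunit of the thymus form, read 27.8 and 3.6.

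Listed genes of antigen processing and of the interferon response also lay on both sides of 0. Of 8 measured antigen processing genes 0 were at least 1.5-fold higher or lower, against 8.82% and 9.11% of all genes. For so few genes this count is near those shares. The MHC class I light chain B2m had a ratio of -0.29, and Tap2, a subunit of the peptide transporter, of 0.28. Tap1, its partner, was under the filter, at 76.8 and 8.4. Of 8 measured interferon response genes 4 were at least 1.5-fold lower, which were Cxcl10 (-1.13), Ifitm3 (-1.05), Bst2 (-0.99) and Stat2 (-0.76), against 9.11% of all genes. The probe sets of Stat2 differed, and the brighter went from 123.2 to 112.3 (-0.13). Cxcl10 (283 to 129.3) and Bst2 (253.7 to 128.1) were dim as well. The other 4 genes were above 0, where 51.8% of all genes were: Rsad2 (0.58), Usp18 (0.45), Irf1 (0.34) and Irf9 (0.315). Of the immune cell markers, Ptprc read 16.8 and 25.2 and Cd68 20 and 22, and the 20 immune marker probe sets summed to 988.8 in the control and to 1256.8 after Tmem132a siRNA. Their part in the immunoproteasome values was not tested.

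The 19S regulator lay a little further above 0 than the core as processed here. In 15 of its 17 measured subunits the ratio exceeded 0, and the median was 0.22 against 0.11 for the core. The difference between these medians was 0.11, and no other setting gave a larger one. It was 0.03 with the 75th percentile filter and with no signal filter. By the brightest probe set, or the median over probe sets, it was 0.05. Without probe sets of the x, s and a kind, which can bind several transcripts, it was 0.0064. The members of the core and of the regulator, 31 genes, all lay within 0.5 of 0.

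**Figure D2:**
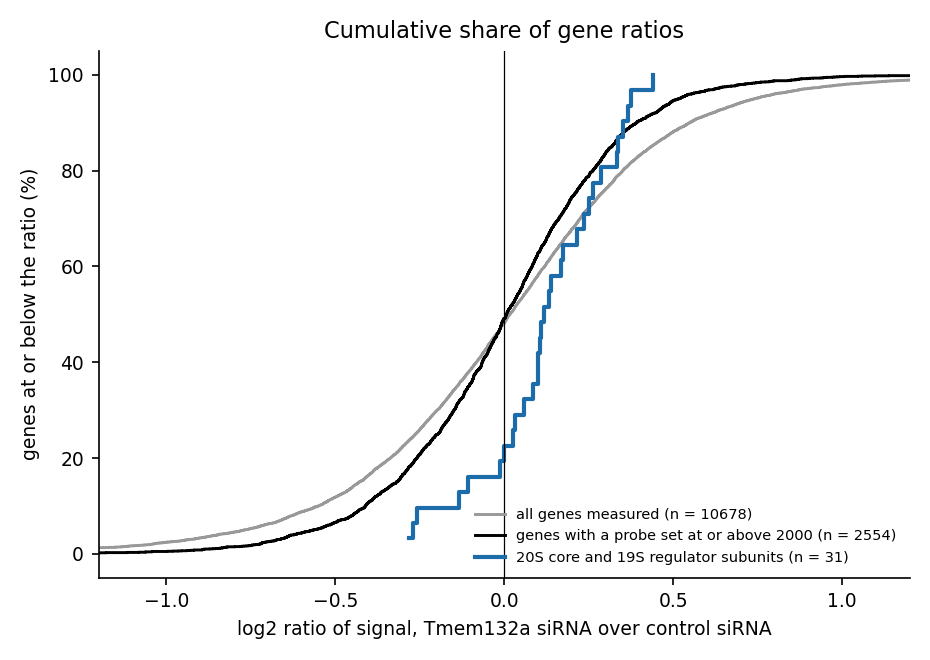
Cumulative share (%) of genes at or below each log2 ratio of signal (Tmem132a siRNA over control siRNA) for all 10678 genes, the 2554 genes with a probe set at or above 2000, and the 31 subunits of the 20S core and 19S regulator; the axis ends at 1.2 on either side. The subunit curve starts at -0.28, ends at 0.44 and lies right of both others through its middle, at a median of 0.12.

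The ATPases of the base, encoded by Psmc1 to Psmc6, were the most divided class of the regulator. Psmc2 had the highest ratio of the core and regulator subunits as processed here; with the pseudocount Psmd1 and Psmd2 were above it, and with no signal filter Psma5 and Psmd2. Its bright probe sets went from 7170.3 to 9400.1 and from 6203.4 to 8053.5, and a dim one from 73 to 107.3, which gave 0.39, 0.38 and 0.56 and a gene ratio of 0.44. All 3 were higher on the Tmem132a siRNA array. Psmc1 went from 3365.1 to 4250.7 (0.34). With no signal filter its ratio was -0.20, since a probe set at 24.1 and 12.6 then entered.

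The other ATPases were nearer to 0 or below it. Psmc6 had a ratio of 0.22 over 3 probe sets, from 0.10 to 0.38, and Psmc5 of 0.09 (3356.3 to 3561.3). Psmc4 had a ratio of -0.27, and both of its probe sets were lower on the Tmem132a siRNA array: 7623.7 to 6227.9 and 3313.3 to 2794.7. Psmc3 went from 6149.4 to 5138.6 (-0.26). Psmc4 and Psmc3 were the 2 regulator subunits with a ratio below 0.

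The base is built from modules, each an ATPase pair held by its own chaperone, and the genes were also grouped this way after their values were seen. Psmc1 and Psmc2 assemble with the scaffold Psmd2 and the chaperone Psmd5, and these 4 genes had ratios between 0.33 and 0.44. Psmd2 went from 6142.6 to 7918.7 (0.37) and Psmd5 from 2025 to 2539.3 (0.33). Psmc4 and Psmc5 assemble with the chaperone Psmd10, also known as gankyrin, and gave -0.27, 0.09 and 0.06. Psmc3 and Psmc6 assemble with the chaperone Psmd9 and gave -0.26, 0.22 and 0.51. The module of Psmd5 was thus the even one in these values, and within each of the others an ATPase lay below 0. As the grouping followed the values, it is a description only.

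Because the genes of that module had like ratios, the 100 bases before the start of each are shown, from RefSeq promoters of build GRCm38.p6, 5′ to 3′ on the strand of the gene. Capitals mark CCGGAAGT, a sequence bound by ETS family factors, or CCAAT, the sequence bound by NF-Y, on either strand. Psmc2 has 2 annotated starts, and the window of 1 of them is shown.
Psmc1 (chr12:100110102-100110201, plus strand): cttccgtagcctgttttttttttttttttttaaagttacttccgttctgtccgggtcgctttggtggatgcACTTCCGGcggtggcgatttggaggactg
Psmc2 (chr5:21785175-21785274, plus strand): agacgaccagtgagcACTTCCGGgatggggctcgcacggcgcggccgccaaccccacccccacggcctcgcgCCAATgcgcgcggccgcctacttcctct
Psmd2 (chr16:20651552-20651651, plus strand): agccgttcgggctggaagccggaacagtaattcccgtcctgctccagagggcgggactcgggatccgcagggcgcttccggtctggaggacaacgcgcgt
Psmd5 (chr2:34870963-34871062, minus strand): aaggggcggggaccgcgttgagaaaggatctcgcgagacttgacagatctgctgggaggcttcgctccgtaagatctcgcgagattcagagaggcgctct
Both ATPase promoters hold the ETS-type sequence within this window, and those of Psmd2 and Psmd5 hold none of the marked sequences there. Only exact matches were marked, and a near match such as gcttccgg in Psmd2 was not counted.

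Among the other base subunits, Psmd1, the larger scaffold of the base, went from 5762.1 to 7476.5 (0.38). Psmd4, a ubiquitin receptor, was close to 0 at 0.03. Its 3 probe sets ran from -0.05 to 0.14. The brightest went from 5208.1 to 5722.3 and the next from 3201.7 to 3102.8. Both scaffolds, Psmd1 and Psmd2, were therefore higher by about the same amount, and the receptor was not.

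The lid subunits gave 8 of 8 ratios above 0 (median 0.19), though Psmd7 (0.0008) and Psmd8 (0.03) were above it by very little. Psmd14, the deubiquitinase that cuts ubiquitin from substrates, went from 9084.7 to 10712.1 (0.24). Psmd12 went from 5812.9 to 6916.7 (0.25). Psmd13 had a ratio of 0.29 over 3 probe sets, all higher, between 0.23 and 0.33. Psmd6 gave 0.13, from probe sets at 0.14 and 0.13, and Psmd3 gave 0.10. Psmd7 went from 3291.6 to 3343.3 on its bright probe set and from 176.6 to 174.1 on a dim one. With the median ratio of all probe sets set to 0 it was at -0.0054, and with no signal filter at -0.26.

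Psmd11, a lid subunit known to promote the assembly of core and regulator, had a ratio of 0.33, but it rests on unequal probe sets. The brightest, 1437080_s_at, went from 9531 to 11990.1 (0.33). Of the others past the filter, 1429370_a_at gave 0.21, 1456104_at gave 0.11, 1456059_at gave -0.02 and 1440253_at gave -0.14. The dimmest, 1431013_at, went from 53.2 to 150.6, which is 2.83-fold, and raised the mean. Under other processing the gene ratio of Psmd11 ran from 0.10 to 0.36.

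The assembly chaperones were scattered more widely. Their 8 genes had a median of 0.14 and an SD of 0.46, against an SD of 0.16 over the 14 core subunits. Pomp is the maturation factor that brings beta subunits onto the alpha ring and is degraded as the first substrate of the finished core. It had the lowest ratio of the 46 members. With no signal filter Psmb8 (-1.11) was lower, as were the dim Psma8 (-1.02) and Psmb11 (-0.94), which then entered. Pomp went from 6408 to 3362.7, which is 52.5% of the control level and a ratio of -0.93. It is read by 1 probe set, 1416979_at, so choices among probe sets could not change it, and the other scalings, normalizations and the pseudocount gave -0.94 to -0.92. Among the 20S chaperones Psmg4 was also lower, from 1349.9 to 992.5 (-0.44).

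The other 20S chaperones lay near or above 0. Psmg1, which pairs with Psmg2 to hold alpha subunits together, went from 3521.9 to 3998.2 (0.18). Psmg2 had a ratio of 0.09, from probe sets that disagreed: 3495.2 to 3260 (-0.10) and 2852.9 to 3463.9 (0.28). Psmg3, the partner of Psmg4, had a ratio of 0.19, from a bright probe set at 0.50 (1734.3 to 2460.9) and a dim one at -0.12 (185.2 to 170.7). The partners Psmg3 and Psmg4 thus lay on opposite sides of 0.

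The 19S chaperones were all above 0. Psmd9 had a ratio of 0.51, which is 1.42-fold. This was the highest of the 46 members as processed here, but Psmg3 (0.50) was above it with the 75th percentile filter, Psmf1 (0.76) and Psmg3 by the brightest probe set, and several members with no signal filter. Its probe sets went from 539.2 to 758.3 and from 91.8 to 132.3, and both were higher on the Tmem132a siRNA array. With a pseudocount in place of the floor its ratio was 0.38, and with no signal filter 0.24, since a probe set at 48.9 and 39.4 then entered. Psmd5 followed at 0.33, and Psmd10 went from 1874.3 to 1953.9 (0.06).

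The promoters of the genes at the ends of the range are shown in the same way, for the 100 bases before the start, with TGACNNNGC, the antioxidant response element that NRF1 and NRF2 bind, also in capitals.
Psmd9 (chr5:123228090-123228189, plus strand): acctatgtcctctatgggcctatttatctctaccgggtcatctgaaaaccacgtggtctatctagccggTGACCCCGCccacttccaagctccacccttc
Pomp (chr5:147860528-147860627, plus strand): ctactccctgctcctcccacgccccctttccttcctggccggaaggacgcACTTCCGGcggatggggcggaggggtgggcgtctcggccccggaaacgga
Psme1 (chr14:55578394-55578493, plus strand): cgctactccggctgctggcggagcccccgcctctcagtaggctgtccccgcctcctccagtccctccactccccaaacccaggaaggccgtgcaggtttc
Pomp (-0.93) and Psmc2 (0.44) hold the same ETS-type sequence. Psmd9 holds the antioxidant response element, and Psme1 holds none of the 3 in this window.

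Activators that cap the core in place of the 19S regulator were low or uneven. Psme1, a subunit of the interferon-inducible PA28 cap, followed Pomp at the low end of the 46 members. It went from 3329.5 to 2055.8, 61.7% of the control level and a ratio of -0.70, on 1 probe set, 1417056_at. As for Pomp, only the scalings, normalizations and the pseudocount could change this, and they gave -0.70 to -0.68. Its partner Psme2 shares a probe set with Psme2b and is no member by the rule. That probe set went from 3517.3 to 3140.3 (-0.16).

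The nuclear activators were read differently by different probe sets. Psme3, which encodes PA28-gamma, had a ratio of -0.14, from 2665.7 to 1788.1 (-0.58) on 1418078_at and from 1718.7 to 2114.9 (0.30) on 1418079_at. Why they differ was not tested. Psme4, which encodes PA200, had a ratio of 0.09. Its 3 bright probe sets were all higher, at 0.20, 0.40 and 0.46, and a dim one was lower, from 204.2 to 126.4 (-0.69). With the filter at the 75th percentile, which leaves out the dim probe set, the ratio of Psme4 was 0.36.

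Psmf1, which encodes the proteasome regulator PI31, was read in opposite directions. 1451337_at went from 796.9 to 1349 (0.76). 1424370_s_at went from 797 to 561.2 (-0.51), 1424369_at from 516.9 to 321.3 (-0.69) and 1424371_at from 140.5 to 110.4 (-0.35). Thus 1 probe set was at least 1.5-fold higher and another at least 1.5-fold lower, and the gene ratio of -0.20 describes neither. Whether they read different transcript ends was not tested. Psmc3ip, matched by name only, had a ratio of 0.04 (1186.6 to 1234.3 and 1015 to 1037.3).

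**Figure D3:**
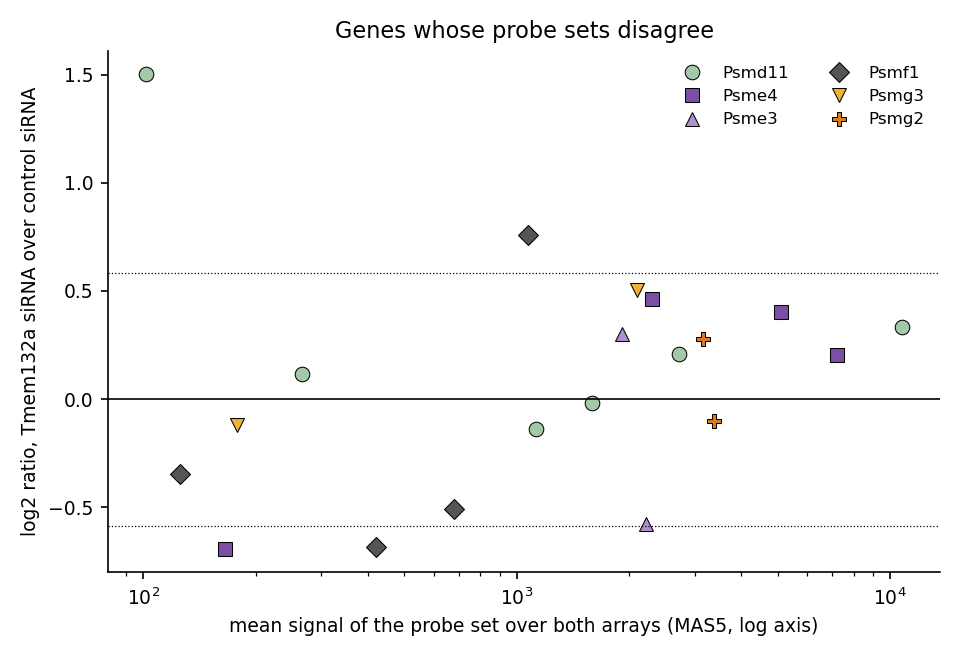
Log2 ratio (Tmem132a siRNA over control siRNA) against mean signal (log axis) of each probe set past the filter, for 6 members with probe sets on both sides of 0; dotted lines mark 1.5-fold. Psmf1 spans -0.69 to 0.76 and the 2 probe sets of Psme3 stand at -0.58 and 0.30, while the farthest probe sets of Psmd11 (2.83-fold higher) and Psme4 (-0.69) are dim.

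Across all members with several probe sets, 12 of 23 genes had all of them on 1 side of 0 and 11 had them on both sides. Of the latter, Psma3, Psmb1, Psmb3, Psmd4, Psmd7 and Psmg2 lay within 0.3 of 0 on every probe set. The plot of ratio against signal shows Psmg2 together with Psmd11, Psme3, Psme4, Psmf1 and Psmg3.

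**Figure D4:**
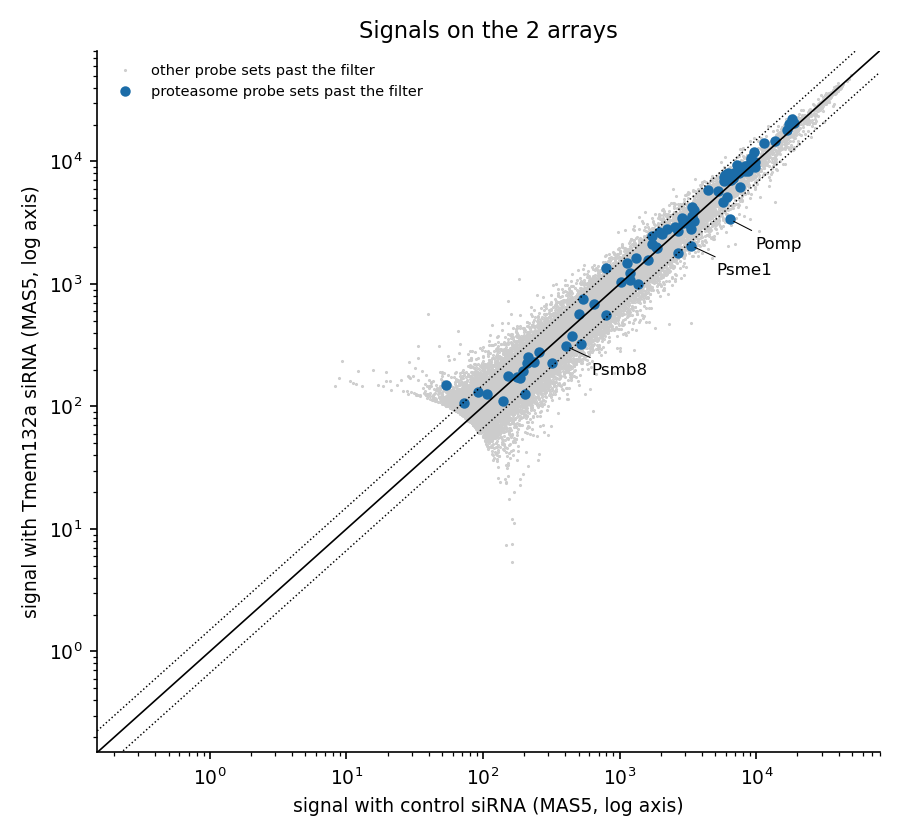
Signal of each probe set past the filter with the control siRNA (x axis) and the Tmem132a siRNA (y axis), both MAS5 signals on log axes; blue points are the 84 proteasome probe sets, grey points all others, the solid line is equality and dotted lines mark 1.5-fold. Proteasome probe sets are mostly bright and lie close to the line of equality, and 6 lie outside the dotted lines: Pomp, Psme1 and 1 probe set each of Psme4 and Psmf1 below, and 1 each of Psmd11 and Psmf1 above.

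Other genes of the pathway were taken from lists by function. Among 11 measured cofactors and further subunits, 8 ratios were above 0, where 51.8% of all genes were, and the median was 0.21. Of the 11, 1 gene was at least 1.5-fold higher and 0 lower. These counts are set against 8.82% and 9.11% of all genes, and 1 of 11 is near that share. The gene was Zfand2a, a stress-induced proteasome-binding protein, at 0.68 over 4 probe sets that ran from 0.11 to 0.90, the brightest from 1938.4 to 3616.3. Uchl5, a deubiquitinase of the 19S base, went from 5665.1 to 7946.7 (0.49), and Usp14, another, had a ratio of 0.14. Sem1, a small lid subunit outside the naming rule, had a ratio of -0.09 (10703.7 to 10616), and Akirin2, which imports proteasomes into the nucleus, was lowest at -0.20.

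Ubiquitin genes and shuttles gave 7 of 10 ratios above 0, where 51.8% of all genes were, and a median of 0.02. Of the 10, 1 gene was at least 1.5-fold higher and 1 lower. These shares are near the 8.82% and 9.11% of all genes. Sqstm1, which encodes the autophagy receptor p62, went from 4716.6 to 7659.5 (0.70). Rad23b, a shuttle that carries ubiquitinated proteins to the proteasome, had a ratio of -0.65 over 4 probe sets from -1.13 to 0.03. The segregase Vcp lay at -0.17.

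Regulators of proteasome genes gave 8 of 12 ratios above 0 and a median of 0.17; 1 gene was at least 1.5-fold higher and 1 lower. These counts are near the shares of all genes, 8.82% and 9.11%, and 51.8% of all genes were above 0. Nfe2l1 itself went from 1840.4 to 2015.4 (0.13), and Nfe2l2, which encodes NRF2, from 1327.4 to 1628 (0.29). Ngly1, the glycanase that activates NRF1, had a ratio of 0.20. Stat3 was highest at 0.80, over 3 probe sets from 0.68 to 0.89, and Foxo4 lowest at -0.59 (290.8 to 193.8). Nfyb, a subunit of NF-Y, lay at -0.57 over 2 probe sets from -0.94 to -0.21. Its partner Nfya lay at 0.39 over 3 probe sets from 0.01 to 1.05, the brightest from 1126.8 to 1206.1. Nfyc, a further subunit, was close to 0 at -0.04.

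The promoters of the members were searched for the same 3 sequences, from 250 bases before to 50 after each annotated start, on both strands. Of 46 measured members 39 had a promoter in the table. TGACNNNGC was in 6 of 39 (15.4%), against 16.8% of the 8713 measured genes with a promoter and 14.0% of all 27025 genes. CCAAT was in 13 (33.3%), against 43.5% and 41.1%. CCGGAAGT, added after the values were seen, was in 10 (25.6%), against 9.76% and 4.31%. The members with CCGGAAGT had a median ratio of 0.17, and ran from -0.93 for Pomp to 0.44 for Psmc2, while those without it had a median of 0.09. For CCAAT the order was the other way round, with a median of 0.06 with it and 0.12 without it. The shares of the first pair of sequences were near those of other genes or below them.

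The matches to TGACNNNGC in member promoters are shown with up to 10 bases on either side, as this is the site through which NRF1 acts on proteasome genes. Capitals mark the match, which in Psmc6, Psmd12 and Psme4 lies on the opposite strand and so appears as its reverse complement.
Psmb5 (chr14:54618024-54618052, minus strand, ratio -0.11): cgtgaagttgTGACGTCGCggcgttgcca
Psmb6 (chr11:70525338-70525366, plus strand, ratio 0.11): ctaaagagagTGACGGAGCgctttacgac
Psmc6 (chr14:45329587-45329615, plus strand, ratio 0.22): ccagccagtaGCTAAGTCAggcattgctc
Psmd12 (chr11:107479278-107479299, plus strand, ratio 0.25): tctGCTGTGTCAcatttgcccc
Psmd9 (chr5:123228149-123228177, plus strand, ratio 0.51): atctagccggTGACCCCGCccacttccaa
Psme4 (chr11:30771758-30771786, plus strand, ratio 0.09): cgctgcggctGCAGCGTCAccagaagagc
These 6 genes had a median ratio of 0.16, with 5 of 6 above 0, against a median of 0.11 over the members whose promoter held no match. A match describes the letters of the promoter and not binding.

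**Figure D5:**
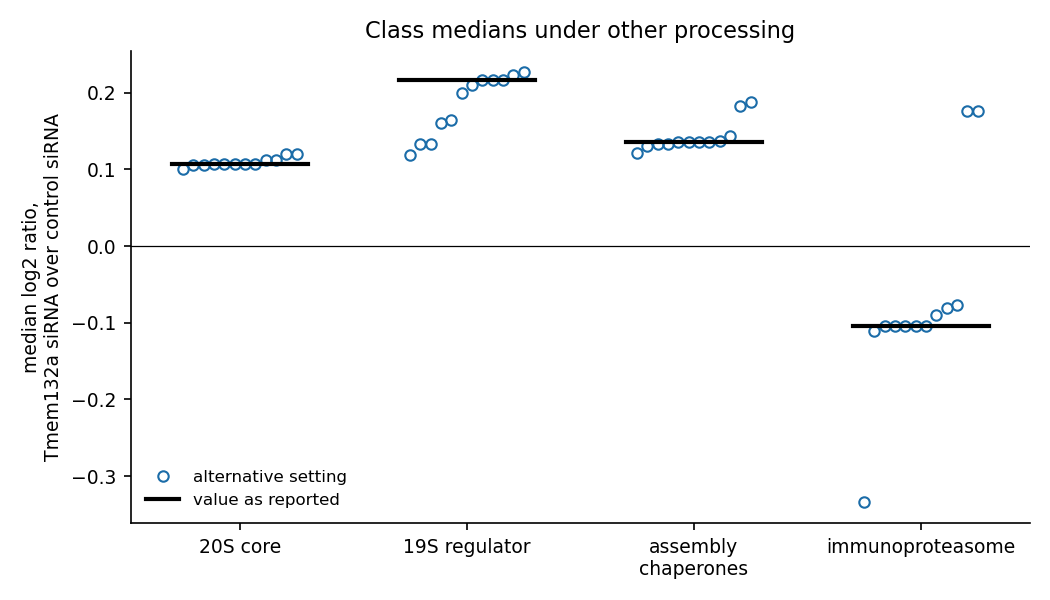
Median log2 ratio (Tmem132a siRNA over control siRNA) of 4 groups of members as reported (black bars) and under each alternative setting (open points, sorted by value within a group). The 20S core (0.10 to 0.12), 19S regulator (0.12 to 0.23) and assembly chaperones (0.12 to 0.19) stay above 0, and the immunoproteasome, with few genes, runs from -0.33 to 0.18.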

How the data were processed

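The values the authors deposited are linear intensity, 1 signal per probe set, from MAS5 as the submitters' processing notes name it. The version and scaling are not given in the sources used here. Groups came from the sample titles. The description of the Tmem132a siRNA sample repeats that of the control, and its title and treatment were followed.

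Signals were set to a common 2% trimmed mean, and values under the 20th percentile (14.5) were raised to it. Probe sets whose mean signal reached the median of all 45037 non-control probe sets (77.25) were kept. A gene value is the mean log2 ratio of its kept probe sets with 1 symbol in the platform annotation, which 10678 genes had. Since each group has 1 array, sizes are described and nothing was tested; the number of arrays limits precision. Called genes are those past 1.5-fold or 2-fold.

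All members are counted within their class. Signals are given for members past 1.5-fold, the ends of each class, catalytic subunits and chaperones, and further members serve as examples. Members and lists were chosen with earlier results of these data known. The grouping by base module and the CCGGAAGT search were added after the values were seen. Processing was tested on simulated data in which the changed genes changed by at least 2-fold. That test does not cover changes as small as most of those described here. Python 3.11.15, numpy 2.4.6, pandas 2.3.3, scipy 1.17.1, statsmodels 0.14.6 and matplotlib 3.10.9 were used.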

Additional observations from a re-analysis of the deposited data

How the results depend on the processing

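With 11 other settings of scaling, normalization, filter, floor, pseudocount and choice of probe sets, the count of members with a ratio above 0 lay between 28 (of 39 measured) and 36 (of 45 or 46), and the median over members lay between 0.10 and 0.13. With no signal filter, 2 members were at least 1.5-fold higher, 5 at least 1.5-fold lower and 2 at least 2-fold changed, of 49, as dim probe sets entered, and the immunoproteasome median was -0.33. Of all 18193 genes, 16.0%, 12.1% and 12% were so called under that setting. The immunoproteasome median was 0.18 with the 75th percentile filter and when probe sets with an x, s or a suffix were left out, where Psmb10 alone was left. By the brightest probe set 1 member, Psmf1, was at least 1.5-fold higher. The 19S regulator exceeded the core by 0.11 at most, and by 0.0064 with those suffixes left out. Of 543 gene values under an alternative, 14 were on the other side of 0, from 7 genes. The 543 include the values without Psmc3ip and with no floor, which equal those reported and could not change side. Leaving out Psmc3ip, an alternative chosen after seeing the data, left 33 of 45 above 0. No paired analysis was possible because each group has 1 array. The immunoproteasome median rests on 2 genes, and without replicate cultures no ratio here has a biological error.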
